A study of Homo sapiens with 28 samples.

Results

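In bone marrow of DKOITD mice, 417 regions of the active histone mark H3K27ac were found that no wild-type (WT) mouse held, out of 32836 H3K27ac regions in all (1.27%). They were chosen by their H3K27ac peaks: the peaks of all 8 mouse libraries were merged into regions, and a library was taken to hold a region when its peaks covered at least 10% of it. A region was selected when it was held by no library of 3 WT mice and by at least 4 libraries of 5 DKOITD mice. H3K27ac at these regions is therefore described with no test, and the values that the choice did not use are their location and the repressive mark H3K27me3.

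The series title places the study in leukaemia of early thymic progenitors with mutated Ezh2 and Runx1. WT mice were Ezh2 fl/fl, Runx1 fl/fl, Rag1 +/+ and Flt3 +/+, so they carried both floxed genes without Cre. DKOITD mice had the same floxed alleles together with Rag1 Cre/+, where Cre is driven by a gene of lymphoid precursors, and Flt3 ITD/+, an internal tandem duplication in a cytokine receptor gene. All mice were C57BL/6, and neither an age nor a disease stage is given in the labels, so the groups are called by genotype. Kit-positive cells had been selected with CD117 beads from WT marrow, while total marrow of DKOITD mice was used, so genotype and cell preparation cannot be told apart anywhere below. Each number in a library name (WT1, DKOITD48 and so on) is taken as 1 mouse, which the labels do not spell out, so p-values measure the spread between these samples.

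H3K27ac is an acetyl group on lysine 27 of histone H3, placed by p300 and CBP at active promoters and enhancers. H3K27me3 is a trimethyl group on the same residue, written by EZH2 in the Polycomb repressive complex PRC2, and found over silent genes, many of them regulators of development and cell identity. A single histone tail cannot carry both marks, so a region with both in bulk marrow holds them on different tails, alleles or cells.

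The H3K27ac libraries held 6515614 to 7072997 fragments in WT and 9435546 to 11458360 in DKOITD mice, and the H3K27me3 libraries held 2766339 to 6411696. H3K27ac peaks covered 16.8 to 29.7 Mb in WT and 7.03 to 23.8 Mb in DKOITD mice, least in DKOITD53e and DKOITD83. H3K27me3 peaks covered 13.8 to 27.3 Mb in WT, 30.3 Mb in DKOITD52, 40.5 Mb in DKOITD185, and only 3.17 to 5.24 Mb in the other 3 DKOITD mice. Of 20 housekeeping genes, 16 to 19 had H3K27ac at a gene end in every library. Neutrophil genes had it at 9 to 15 of 17 in WT and 0 to 8 in DKOITD mice, and stem and progenitor genes at 9 to 13 of 20 and 3 to 7. Erythroid genes had it at 5 to 8 of 19 in WT and 1 to 2 in DKOITD mice. Of all 21887 genes, 8746 to 9726 had it in WT and 7320 to 9913 in DKOITD mice.

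The 417 regions were 346 to 9439 bp long, with a median of 1423 bp against 1026 bp for all H3K27ac regions, and together covered 0.719 Mb. DKOITD185 held all 417 of them, DKOITD48 held 411, DKOITD52 held 403, DKOITD83 held 335 and DKOITD53e held 264. All 5 DKOITD mice held 162 of the regions, and where 1 mouse was missing it was DKOITD53e in 153 cases and DKOITD83 in 82. The 2 mice most often missing thus had the smallest H3K27ac territories. H3K27ac peaks lay over 85.6% of the regions' length in DKOITD185, 68.5% in DKOITD52, 57.7% in DKOITD48, 30.7% in DKOITD83 and 24.1% in DKOITD53e. In WT mice they lay over 0.607%, 0.231% and 0.231%, since 19 regions had some WT peak below the 10% limit.

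The peaks behind the 417 regions were of middling or low strength within their own library. The authors' fold enrichment had a median at the regions of 4.24 in DKOITD48, 4.52 in DKOITD52, 3.80 in DKOITD53e, 3.99 in DKOITD83 and 4.77 in DKOITD185, which lay between the 21.6th and the 54.3rd percentile of all peaks of those libraries. A peak of −log10 q at least 5 touched 200 of the regions in DKOITD185, 154 in DKOITD52, 116 in DKOITD48, 38 in DKOITD83, 33 in DKOITD53e and 0 in every WT mouse. Such a strong peak was found in all 5 DKOITD mice at 9 regions and in none at 166. WT peaks were not always far away: the nearest lay within 1 kb of 26 regions and within 5 kb of 81, while 269 regions had none within 10 kb.

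Regions on either side of the limits had nearly the same values. Among selected regions, the fourth-highest cover over the DKOITD mice was lowest near Trio (10.14%), Kif13b (10.15%) and Cradd (10.29%), and the first left out lay near Il1b (9.996%), Mre11a (9.985%) and Zfp385a (9.897%). On the WT side, the highest cover still inside was near Tbxas1 (9.865%), Sod1 (9.614%) and Rnase6 (9.603%). Regions near Ly6e (10.00%), Gramd4 (10.18%) and Wdr20 (10.18%) fell just outside.

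Location was not part of the choice. Of the 417 regions, 180 (43.2%, 95% Wilson interval 38.5% to 48%, counting error only) touched a window of 1 kb around an end of a protein-coding gene, and 133 (31.9%) lay inside a gene away from its ends. Another 33 (7.91%) lay outside genes but within 10 kb, 59 (14.1%) lay 10 to 100 kb away, and 12 (2.88%) lay farther than 100 kb from any. Over all H3K27ac regions 31.3% touched a gene end. Regions held in every mouse did so in 85.6% of cases, regions held by 3 of 3 WT and no DKOITD mouse in 11.3%, and regions held by no WT and 1 to 3 DKOITD mice in 12.3%. The gene table has no strand, so a gene end can be a start or a stop. The 162 regions held by all 5 DKOITD mice touched a gene end in 54.3% of cases.

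**Figure D1:**
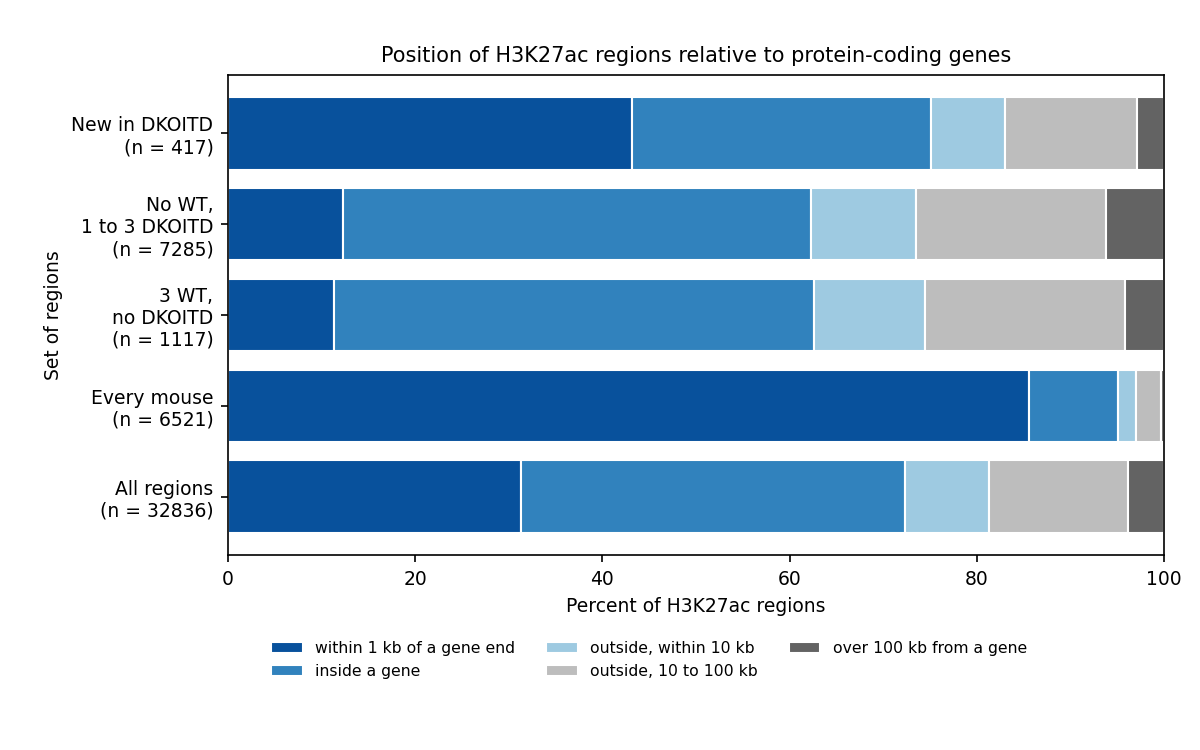
Stacked bars give the percent of H3K27ac regions (horizontal axis) in each class of position relative to protein-coding genes, for 5 sets of regions with their numbers. The share touching a gene end is 43.2% for the 417 regions new in DKOITD marrow, between 85.6% for regions held in every mouse and 11.3% for regions held by 3 WT and no DKOITD mouse.

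The nearest genes were 392 distinct genes, 1.79% of the 21887 in the table, for the 405 regions within 100 kb of a gene. In 260 of these 405 the nearest gene had no H3K27ac at either end in any WT mouse, and in 111 it had H3K27ac there in all 3. Of all 21887 genes, 8746 to 9726 had H3K27ac at an end in each WT mouse, so many genes lacked it. For regions at a gene end, the choice itself favours a nearest gene without it in WT mice. Of the 225 regions away from gene ends, 98 had a nearest gene acetylated at an end in all 3 WT mice and 102 in none. Lpp, which encodes an adaptor of focal adhesions, and Prex1, an exchange factor for Rac, were each nearest to 3 regions. The 3 Lpp regions lay inside the gene on chromosome 16, between 24593145 and 24625561, and all 5 DKOITD mice held each of them, with 0.400 to 1.91 kb acetylated. Around Prex1, one region lay inside the gene and the others 84.4 and 18.2 kb from it, and each was held by 4 of 5 DKOITD mice.

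Genes of antigen presentation by class II molecules of the major histocompatibility complex (MHC) lay near 6 regions. These molecules display peptides to helper T cells, and are made by dendritic cells, B cells and macrophages. Of 13 genes on a class II list, 6 were nearest to a region (46.2%, against 1.79% of all genes): the chains H2-Aa, H2-Ab1, H2-Eb1 and H2-Eb2, the peptide-loading subunit H2-DMb1, and Ifi30, a thiol reductase of the endosome. All of these genes but Ifi30 lie close together on chromosome 17, so the 6 are not separate counts. The lists were drawn up with earlier results of these data known, so these counts are a description.

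The region at H2-Aa (mm10 chr17:34285096-34289324), over the gene's end, had 3.88 kb under H3K27ac peaks in DKOITD48, 3.48 in DKOITD52, 2.98 in DKOITD53e, 1.73 in DKOITD83, 4.23 in DKOITD185 and 0 in each WT mouse. The H2-Eb1 region (chr17:34303666-34308533) had 4.84, 4.78, 2.62, 2.91 and 3.93 kb in the same order, and 0.213 kb in WT1 with 0 in WT2 and WT3. At both, every DKOITD mouse was above every WT mouse, which the choice favours. The regions beside H2-Ab1 (chr17:34256644-34259354, 3.87 kb from the gene) and H2-Eb2 (chr17:34346563-34349587, 5.15 kb from the gene) had 1.45 to 2.62 kb and 1.37 to 2.76 kb in the 5 DKOITD mice and 0 in WT. H2-DMb1 (chr17:34152179-34154844) had 1.01 to 2.66 kb and 0. The region beside H2-Eb2 lay almost as near to the gene Btnl2, 5.2 kb away on its other side. H2-Eb2 itself had H3K27ac at an end in 2 DKOITD mice. Unlike these 5 regions, the one touching Ifi30 and Pik3r2 (chr8:70765736-70769490) was missing in DKOITD53e and had 3.52, 3.43, 1.61 and 3.75 kb in DKOITD48, DKOITD52, DKOITD83 and DKOITD185.

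Other class II genes missed the choice for differing reasons. The region over H2-Ab1 itself (chr17:34260458-34266678) had 4.26 to 6.20 kb in the DKOITD mice but was held by WT1, where 0.790 kb was covered, and WT3 had 0.531 kb there, below the 10% limit. Cd74, the gene of the class II invariant chain, had a region (chr18:60802786-60808436) with 3.89 to 5.65 kb in the DKOITD mice and 0.623 kb in WT1. H2-DMa, H2-DMb2, H2-Oa, H2-Ob and Ctss were acetylated at an end in all 3 WT mice. Ciita, the master activator of class II genes, had H3K27ac at an end in 1 DKOITD mouse. None of the 6 class II regions had an H3K27me3 peak in any mouse.

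Counts for marker genes of the cell types that carry class II molecules overlapped between the genotypes. Of 22 dendritic cell genes, 7 to 10 had H3K27ac at a gene end in WT and 8 to 16 in DKOITD mice, of 18 monocyte and macrophage genes 4 to 8 and 5 to 13, and of 20 B lineage genes 3 to 10 and 2 to 5. Of all 21887 genes, 8746 to 9726 had it in WT and 7320 to 9913 in DKOITD mice. In these lists and over all genes, DKOITD53e and DKOITD83 had the lowest DKOITD counts. The part of these cell types in the class II regions was not tested. In bulk chromatin, more cells with a region acetylated and more acetylation per cell cannot be told apart.

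**Figure D2:**
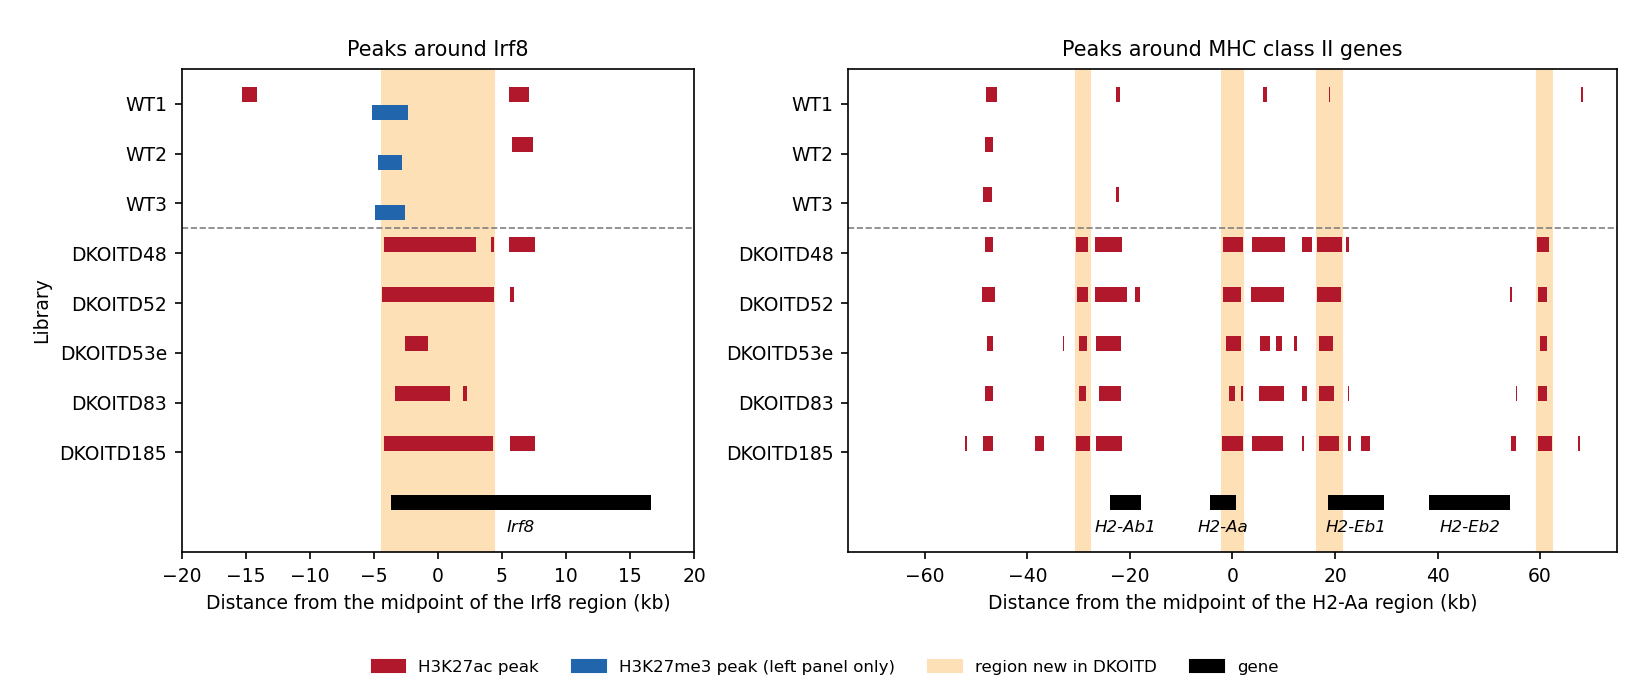
Bars show the peaks of each library (rows) by distance in kb from the midpoint of the Irf8 region (left, both marks) and of the H2-Aa region (right, H3K27ac only), with shading for regions new in DKOITD marrow and black bars for genes. In the left panel the 3 WT mice have only H3K27me3 in the shaded region and the 5 DKOITD mice only H3K27ac, and in the right panel the 4 shaded regions are acetylated in every DKOITD mouse, with a single narrow WT peak in WT1.

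Interferon regulatory factors are transcription factors of myeloid and lymphoid cells, and 2 of the 9, Irf8 and Irf4, were nearest to a region (22.2%, against 1.79% of all genes). Irf8, needed for dendritic cells and monocytes, had the region with the greatest mean acetylated length of all 417, 6.24 kb ± 2.94 (SD, n = 5). That region (chr8:120735662-120744414) spans one end of the gene and part of its body, and had 7.40 kb in DKOITD48, 8.74 in DKOITD52, 1.86 in DKOITD53e, 4.67 in DKOITD83, 8.51 in DKOITD185 and 0 in each WT mouse. A separate region farther inside Irf8, 1.15 kb away, was held by WT1 and WT2 with 1.58 and 1.65 kb. The Irf4 region (chr13:30749147-30751456), at the gene of a factor of lymphocytes and dendritic cells, had 1.59, 2.14, 1.22 and 1.86 kb in DKOITD48, DKOITD52, DKOITD53e and DKOITD185, and 0 in DKOITD83 and in WT. The region at one end of Irf5 was held by all 5 DKOITD mice but also by WT2.

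Dendritic cell, monocyte and costimulatory genes were nearest to 7 regions, though most genes of these lists were near none. The genes nearest to a region were 2 of 22 on the dendritic cell list (9.09%), 3 of 18 on the monocyte and macrophage list (16.7%) and 1 of 10 costimulatory ligands, against 1.79% of all genes. Batf3, a factor of type 1 dendritic cells (chr1:191097851-191099329), had 1.09, 0.432, 1.48, 0.549 and 1.27 kb in DKOITD48, DKOITD52, DKOITD53e, DKOITD83 and DKOITD185. Csf1r, the receptor for macrophage colony-stimulating factor (chr18:61105827-61109056), had 1.44, 3.20, 0.737, 0.907 and 3.16 kb, and both regions had 0 in every WT mouse. Regions 16.7 and 5.43 kb from Cd83, a surface protein of mature dendritic cells, were held by all 5 DKOITD mice, with 0.787 to 1.49 kb and 0.884 to 2.67 kb. The region near Fcgr1, an IgG receptor, had 0.245 to 1.92 kb in the same mice. Cx3cr1, the fractalkine receptor, and Flt3 each had a region inside the gene that DKOITD53e lacked. At Cx3cr1, WT1 had H3K27ac on either side of the region, 0.480 and 1.01 kb. With peaks merged across gaps up to 1 kb, the Cx3cr1 region and the one 16.7 kb from Cd83 were no longer selected. At Flt3, which carries the tandem duplication in these mice, the region (chr5:147361454-147363520) had 0.416, 0.903, 0.447 and 2.06 kb in DKOITD48, DKOITD52, DKOITD83 and DKOITD185, and WT mice held other regions of the gene, the nearest WT peak being 2.56 kb away.

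Among 15 genes of cytokine feedback and STAT5 response, 4 were nearest to 5 regions (26.7% of the list, against 1.79% of all genes). Socs2 and Socs3 encode inhibitors of JAK and STAT signalling, Pim1 a survival kinase and Bcl6 a transcriptional repressor. The Socs2 region (chr10:95413755-95417833) had 2.52 kb in DKOITD48, 3.01 in DKOITD52, 2.27 in DKOITD83, 4.08 in DKOITD185 and 0 in DKOITD53e and WT. At Pim1, 45.1 kb from the gene, the region had 1.00 to 3.95 kb in DKOITD48, DKOITD52, DKOITD53e and DKOITD185. The Bcl6 region lay 22.6 kb from its gene and had 0.506 to 1.90 kb in the same 4 mice. Socs3 had a region over the gene and another 2.13 kb away (chr11:117959548-117963945), where DKOITD185 alone had 4.40 kb against 0.460 to 0.733 kb in the other DKOITD mice, and WT1 and WT3 had 0.329 and 0.292 kb.

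Many other lists had no gene nearest to a region. No region had a nearest gene among 17 neutrophil, 20 stem and progenitor, 20 B lineage, 22 T lineage, 10 natural killer, 12 megakaryocyte, 11 mast cell, 6 plasma cell, 18 interferon-stimulated or 20 housekeeping genes. With 1.79% of all genes nearest to a region, lists this short would mostly have none, so an empty list says little about a cell type. Single genes of other lists reported here were Ank1 of the erythroid list (11.8 kb away) and Spred3 of ERK feedback. No region lay nearest to a member of the lists for PRC2 and H3K27 demethylases, Notch, RUNX, C/EBP or CDK inhibitor genes within the 100 kb limit. Past it, one region lay 192 kb from Jarid2, a PRC2 partner, and another 200 kb from Runx1.

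The longest region (chr16:93026009-93035447) lay 200 kb from Runx1, its nearest gene, with Setd4 548 kb away on the other side. It had 5.74 kb in DKOITD48, 6.33 in DKOITD52, 2.25 in DKOITD53e, 2.73 in DKOITD83 and 9.44 in DKOITD185, and 0.705, 0.346 and 0.536 kb in WT1, WT2 and WT3. All WT mice thus had some H3K27ac there, below the 10% limit. Ahnak, which encodes a large scaffold protein, was alike: its region (chr19:8988220-8994071) had 0.295 to 0.347 kb in WT and 1.62 to 5.59 kb in DKOITD mice. Among the 12 regions with the greatest mean acetylated length, others lay in Dusp22, a phosphatase gene, and Mob3b, at the proton-sensing receptor relative Gpr132 and the protease gene Prss30, and 32.5 kb from the calcium pump gene Atp2b1.

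**Figure D3:**
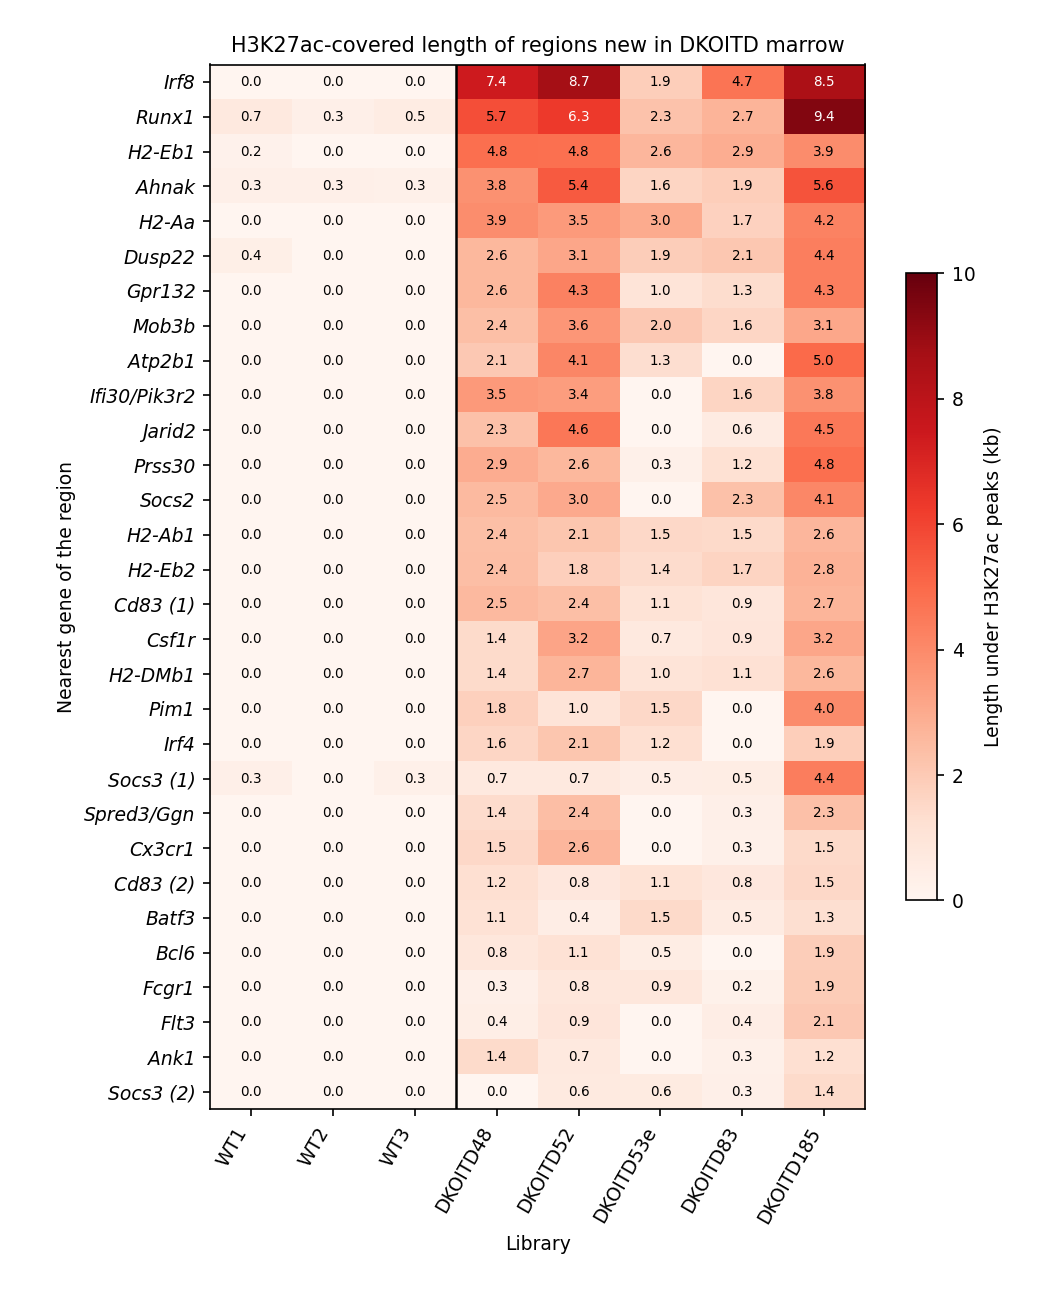
Each cell gives the length in kb under H3K27ac peaks of a region (row, by nearest gene) in a library (column), with WT left of the line and regions ordered by their DKOITD mean. The regions shown are the 12 with the most H3K27ac in DKOITD mice and the reported ones near a listed gene, Irf8 leads with 1.9 to 8.7 kb in DKOITD mice, and numbers in brackets tell apart regions that share a nearest gene.

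The choice of these named regions depended on peak strength. When each library was reduced to its 8825 strongest peaks, the regions at Irf8, H2-Aa, H2-Eb1, H2-Ab1, H2-Eb2, H2-DMb1 and the one near Runx1 were still selected, and those at Ifi30, Irf4, Batf3, Csf1r, Socs2, Pim1 and Bcl6 were not. With only peaks of −log10 q at least 5, H2-Eb2, H2-DMb1 and Ahnak were still selected and Irf8, H2-Aa and H2-Eb1 were not. With any overlap counted as holding, the regions at H2-Eb1, Ahnak, Dusp22, 2.13 kb from Socs3 and near Runx1, which have a WT peak, were no longer selected.

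On the sex chromosomes there were 9 of the regions, 6 on X and 3 on Y. The Y regions, at Eif2s3y, Uty and Ddx3y, had H3K27ac in 4 DKOITD mice and none in DKOITD83 and the WT mice. Only a mouse with a Y chromosome can hold such a region, and the part of sex in these 3 was not tested. Without X and Y, 408 regions remained.

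H3K27me3, which the choice did not use, lay on a minority of these regions in WT marrow. It was held (at least 10% of the region covered) at 31.9% of the 417 regions in WT1, 24.7% in WT2 and 30.9% in WT3. In DKOITD mice it was held at 24.0% in DKOITD52 and 17.0% in DKOITD185, but DKOITD48, DKOITD53e and DKOITD83 had only 3.60%, 2.40% and 3.60%. The 3 DKOITD mice with little H3K27me3 there were also the 3 with the smallest H3K27me3 territories. The mean was 29.2% ± 3.90 (SD, n = 3) over the WT mice, and 10.1% ± 9.81 (SD, n = 5) over the DKOITD mice.

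All H3K27ac regions held H3K27me3 far less often, on average at 3.13% ± 0.578 (SD, n = 3) for WT and at 1.71% ± 1.47 (SD, n = 5) for DKOITD. The share of length covered was 16.4% ± 3.18 (SD, n = 3) and 4.48% ± 4.83 (SD, n = 5) for the 417 regions, against 1.73% ± 0.367 (SD, n = 3) and 0.946% ± 0.753 (SD, n = 5) for all regions. H3K27me3 was held in at least 2 WT mice by 126 of the 417 regions (30.2%), where 3.07% of all H3K27ac regions did so. Among regions held by at least 4 DKOITD mice, the share fell with the number of WT mice that held H3K27ac, from 30.2% with 0 to 19.9% of 287 regions with 1, 12.8% of 397 with 2 and 1.99% of 7697 with 3. The number of WT mice with H3K27ac is itself part of the choice.

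**Figure D4:**
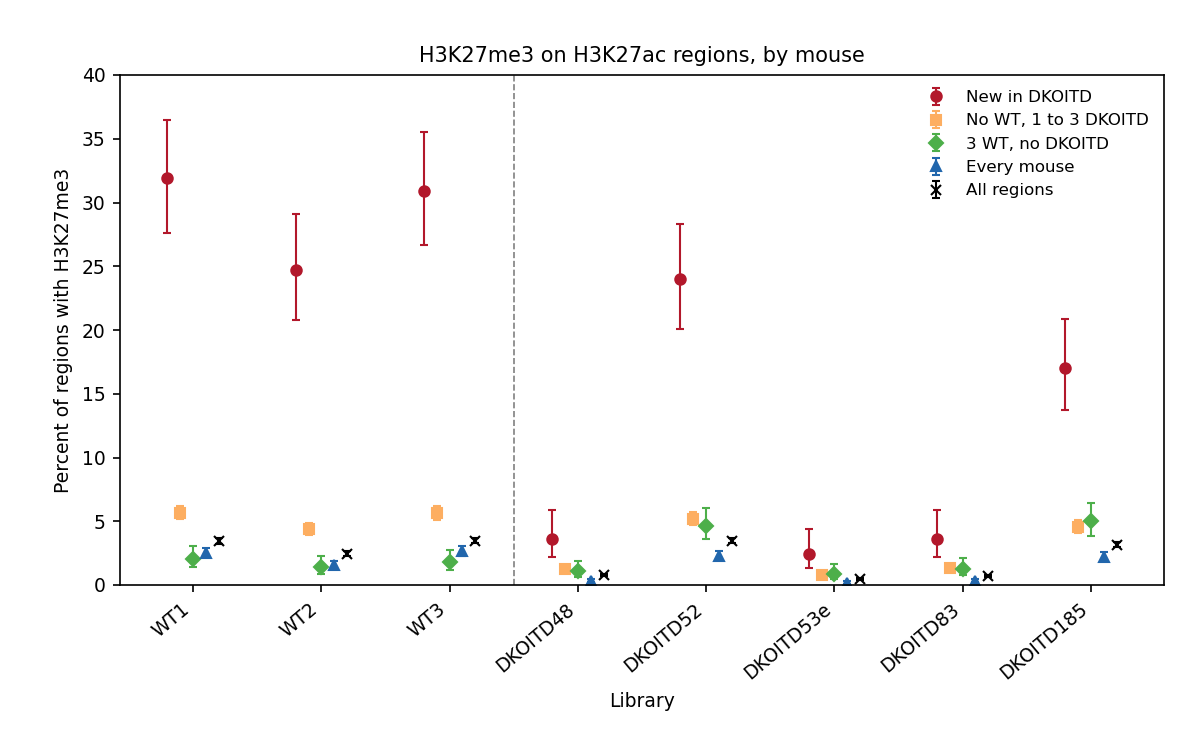
Points give the percent of regions with H3K27me3 (vertical axis) in each library (horizontal axis) for 5 sets of H3K27ac regions, with 95% Wilson intervals for counting error only. The regions new in DKOITD marrow stand at 24.7% to 31.9% in WT, 24.0% and 17.0% in DKOITD52 and DKOITD185, and 2.40% to 3.60% in the other 3 DKOITD mice.

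The methylated regions were mostly at gene ends. Of the 126 regions with H3K27me3 in at least 2 WT mice, 95 (75.4%) touched a gene end, against 85 of the other 291 (29.2%). Put the other way, 52.8% of the 180 gene-end regions were methylated in at least 2 WT mice, where 6.91% of all 10278 gene-end H3K27ac regions were. Inside genes the shares were 16.5% and 1.40%. All 5 DKOITD mice held H3K27ac at 77 of the 126 (61.1%) and at 85 of the other 291 (29.2%).

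In the DKOITD mice, H3K27me3 was still held at 90 of the 126 regions in DKOITD52 (71.4%) and 67 in DKOITD185 (53.2%), and the other 3 mice held it at 14 (DKOITD48), 9 (DKOITD53e) and 15 (DKOITD83). The corresponding shares for all 1007 H3K27ac regions methylated in at least 2 WT mice were 76.8%, 67.1%, 21.0%, 13.8% and 21.6% in the same order of mice, higher in each mouse than for the 126. H3K27me3 remained in both DKOITD52 and DKOITD185 at 64 of the 126. It was in no DKOITD mouse at 33, in 1 at 29, in 2 at 43, in 3 at 9, in 4 at 7 and in all 5 at 5.

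Both marks were found together in the same mouse at 89 regions in DKOITD52 (22.1% of those acetylated there) and 71 in DKOITD185 (17.0%), and at 4 to 14 in the other 3. Over all acetylated regions the shares were 3.09% in DKOITD52 and 2.92% in DKOITD185. Peaks of both marks covered the same bases at 77 of the 89 and 70 of the 71. Of the 14 regions that lacked H3K27ac in DKOITD52, 11 had H3K27me3 there, and of the 153 missing in DKOITD53e, 6 did.

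The 5 regions with H3K27me3 in at least 2 WT mice and all 5 DKOITD mice, named here after their values were seen, lay at ends of Sulf2, Whrn, Foxo6, Ccnd1 and Hmga2. At Ccnd1, which encodes cyclin D1 (chr7:144938178-144941614), H3K27me3 covered 3.44 kb in each WT mouse and 0.426, 3.44, 0.648, 1.25 and 3.34 kb in DKOITD48, DKOITD52, DKOITD53e, DKOITD83 and DKOITD185. H3K27ac covered 1.15, 2.04, 0.675, 0 and 2.64 kb of the same region. At Hmga2, the gene of a chromatin protein of stem and fetal cells (chr10:120474498-120475958), H3K27me3 covered 1.46 kb in each WT mouse and 0.851 to 1.46 kb in DKOITD mice, next to 0 to 1.44 kb of H3K27ac. These regions carried both marks in most DKOITD mice.

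H3K27me3 in at least 2 WT mice and no DKOITD mouse was found at 33 of the 417 regions (7.91%), against 0.594% of all H3K27ac regions. As a share of those methylated in at least 2 WT mice, that is 26.2% of 126 against 19.4% of 1007. Of the 33, 27 touched a gene end, and 24 held H3K27ac in all 5 DKOITD mice. The opposite, H3K27me3 in no WT and at least 2 DKOITD mice, was found at 3 regions, near Pecr, Gab1 and Prr7, where 0.429% of all regions did so. These 3 were also named after their values were seen.

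Regions were then tested 1 by 1 for H3K27me3, with limma on log2 of the covered length plus 100 bp over the 1382 H3K27ac regions with H3K27me3 in at least 2 libraries, and Benjamini-Hochberg adjustment over all of them. At an adjusted p under 0.05, limma called 111 regions lower in DKOITD mice (8.03% of those tested) and 5 higher (0.362%). Among the 417, 137 could be tested, 26 were lower and 0 higher, and at an unadjusted p under 0.05 the counts were 73 lower and 0 higher. A region methylated only in WT mice could enter the test, and 14 of the 26 had H3K27me3 in no DKOITD mouse. Since a histone tail cannot carry both marks, choosing regions without H3K27ac in WT mice can itself favour this direction. The median log2 difference was -1.92 for the 137 and -0.98 for all tested regions. Without DKOITD48, DKOITD53e and DKOITD83 the counts over all regions turned to 60 lower and 115 higher, and among the 417 regions to 14 and 2. With the total H3K27me3 territory of each library as a covariate they were 142 lower and 128 higher over all, and 38 and 2 among the 417. With H3K27me3 peaks of −log10 q at least 5, limma called 0 regions lower, and 7 at an unadjusted p under 0.05. Only 18 of the 417 were then tested.

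Irf8 was among the regions with the largest log2 difference. H3K27me3 covered 2.08 kb of its region in WT1, 1.56 in WT2, 1.81 in WT3 and 0 in all 5 DKOITD mice, a log2 difference of -4.25 ± 0.15 (SE; limma adjusted p = 3.89e-06). In WT the methylated stretch lay at the gene's end, at the edge of the 8753 bp that were acetylated in DKOITD mice. Rnd3, which encodes a small GTP-binding protein, had H3K27me3 over nearly its whole region (chr2:51146891-51149086) in WT, 1.74 to 2.12 kb, and none in DKOITD mice (log2 difference -4.36 ± 0.14 SE, limma adjusted p = 3.41e-06). H3K27ac covered 0.482 to 2.10 kb of the same region in the 5 DKOITD mice. A log2 difference against mice with no peak depends on the added 100 bp and is not a bound. Where all 5 DKOITD mice have 0 they add no spread, so the small SE and limma p come partly from this floor.

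Of the 26 regions called lower, 14 had H3K27me3 in no DKOITD mouse and 22 touched a gene end. Those named by the size of the difference include 8 more reported here with H3K27me3 in all WT mice, all at gene ends. Nrp1, the receptor neuropilin 1 (chr8:128356740-128359876), had 1.13, 0.836 and 1.31 kb of H3K27me3 in WT (limma adjusted p = 1.01e-05). Ahnak had 2.34, 0.680 and 2.43 kb (limma adjusted p = 4.50e-04). Ccdc102a, Prag1, Dse, Capn2, Niban2 and Apba1 had 0.422 to 2.01 kb in WT mice, with limma adjusted p from 5.60e-06 at Prag1 and Dse to 5.40e-04 at Apba1. Prag1 encodes a pseudokinase, Dse an epimerase of dermatan sulphate and Capn2 a calpain protease. Foxn3, a forkhead repressor gene with its region 63.6 kb away, had 1.33 and 1.31 kb in WT1 and WT3 but 0 in WT2, and missed the threshold (limma adjusted p = 0.136, or 1.78e-06 without WT2).

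**Figure D5:**
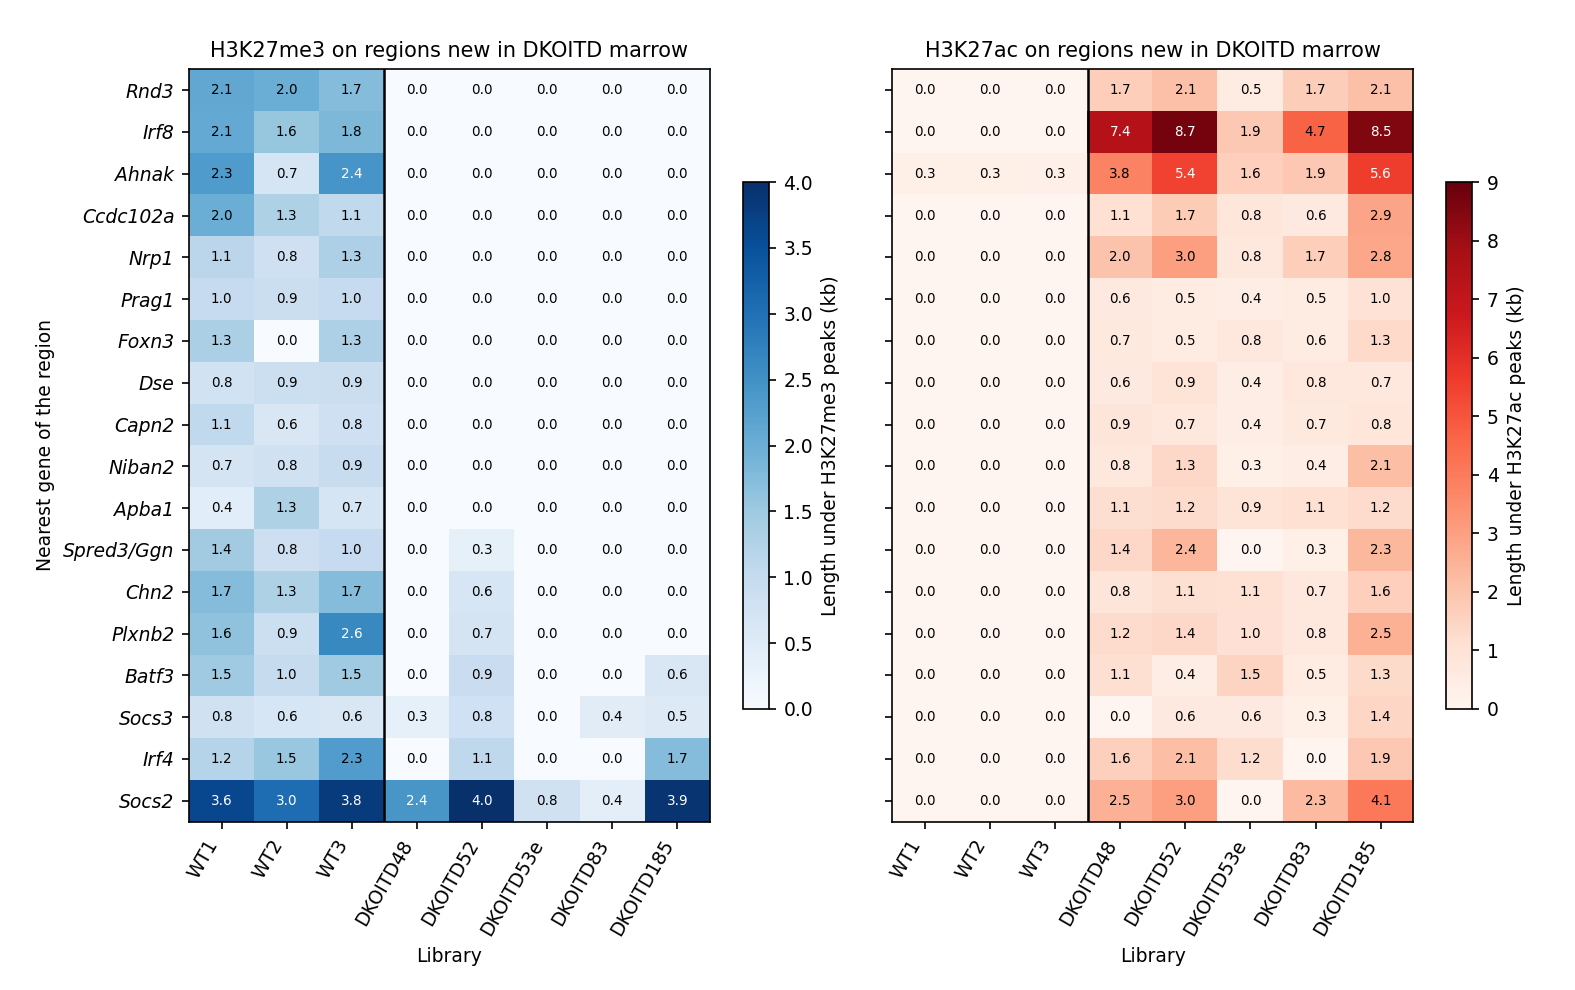
Each cell gives the length in kb under H3K27me3 peaks (left) and H3K27ac peaks (right) of a region (row, by nearest gene) in a library (column), with WT left of the line. From Rnd3 down to Apba1 no DKOITD mouse has H3K27me3, while at Socs2, in the last row, both marks lie in DKOITD48, DKOITD52, DKOITD83 and DKOITD185.

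At 3 other named regions H3K27me3 remained in DKOITD52 alone. The region shared by Spred3, an inhibitor of ERK signalling, and Ggn had 1.44, 0.848 and 0.997 kb in WT and 0.331 kb in DKOITD52 (limma adjusted p = 0.0118, or 0.0519 without WT1). Chn2 and Plxnb2, a Rac regulator and a semaphorin receptor, passed limma narrowly, at an adjusted p of 0.0251 and 0.0450, and both lost the call when any 1 library other than WT2 or DKOITD52 was left out.

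Other regions near regulators of these cells kept H3K27me3 in DKOITD52 and DKOITD185. The Irf4 region had 1.22, 1.55 and 2.31 kb in WT, 1.09 kb in DKOITD52, 1.74 kb in DKOITD185 and 0 in the others (limma adjusted p = 0.242). At Batf3 the values were 1.48, 0.979 and 1.48 kb in WT, 0.920 kb in DKOITD52, 0.601 kb in DKOITD185 and 0 in the others (limma adjusted p = 0.141, or 0.0471 without DKOITD52). Socs2 had 3.63, 3.05 and 3.82 kb in WT and 2.42, 4.00, 0.796, 0.389 and 3.91 kb in DKOITD48, DKOITD52, DKOITD53e, DKOITD83 and DKOITD185, so the groups overlapped (limma adjusted p = 0.395). The region over Socs3 also overlapped between genotypes (limma adjusted p = 0.395).

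An exact permutation test of the difference of means was run for the 6 reported regions near listed genes that had H3K27me3. Its two-sided p was 0.0357 at Irf8, Spred3 and Batf3, where every WT value was above every DKOITD value. This is the smallest that 56 assignments of 8 mice can give. It was 0.143 at Irf4, 0.214 at Socs3 and 0.357 at Socs2. These p-values were not adjusted for the 6 tests. The regions were tested because they had H3K27me3, which at Irf8 lay in WT mice only.

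Most of the regions had no H3K27me3 at all. It was held in no WT mouse at 272 of the 417, and in none of the 8 mice at 260, the class II regions, the Csf1r, Cd83, Fcgr1, Cx3cr1 and Flt3 regions and the long region beyond Runx1 among them. A region without a peak can still carry the mark below the level that these libraries detect.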

How the data were processed

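Both marks were measured by chromatin immunoprecipitation sequencing in 8 mice (16 libraries). The submitters' processing notes list Bowtie2 2.2.5, MACS2 2.0.10 and build mm10. The authors called broad peaks from paired fragments, 1 library at a time and at a q cutoff of 0.05, per the file headers, all WT libraries against the input of WT1 and all DKOITD libraries against that of DKOITD48. The deposited files give every peak a pileup signal, the −log10 of its p- and q-value, and a fold enrichment, the ratio to local background. These authors' values only ranked, described or filtered peaks of 1 list. Fewer fragments or weaker enrichment lose weak peaks first. Drosophila reads went unused per the labels, so levels are not absolute.

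Overlapping peaks were merged into regions with Python 3.11.15. Genes came from RefSeq GRCm38.p6 (21887 protein-coding, no strand). A gene was marked when peaks covered at least 200 bp within 1 kb of an end. limma 3.58.1 and scipy 1.17.1 gave the tests, checked on simulated data. Regions were named by acetylated length (12 largest), exchanged H3K27me3 (12 largest), limma calls (10 largest), gene lists (28 lists, 377 symbols, 2 not in the table), at least 3 regions per gene, and within 250 kb of Ezh2, Runx1, Flt3 or Rag1. The regions and lists were chosen with earlier results of these data known. For 2 of the regions so named the values are not reported here. The human cell lines were not used here.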

Additional observations from a re-analysis of the deposited data

Results flagged for a closer look

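Among 39 groups of 5 DKOITD values at the named regions, 2 held a value far from the other mice by Dixon's test at 95%. For normally distributed values chance gives this in about 1 in 20 groups, a rate that peak lengths with values of 0 need not follow. DKOITD185 had 4.40 kb of H3K27ac at the region 2.13 kb from Socs3, where the other DKOITD mice had 0.460 to 0.733 kb. DKOITD52 had 0.331 kb of H3K27me3 at the Spred3 and Ggn region, where the other 4 had 0. DKOITD185 had the largest H3K27ac territory of the DKOITD mice, at 23.8 Mb, and DKOITD52 the second largest H3K27me3 territory, at 30.3 Mb, and the part of these territories in the values was not tested.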

How the results depend on the processing

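The number of regions, 417, was 410 with any overlap counted, 373 at 25% cover, 403 with gaps of 1 kb merged, 524 at equal peak numbers (8825 per library) and 408 without X and Y (chosen after seeing the data). It moved to 228 at 50% cover (115 of the 417 overlapped), 222 with peaks of −log10 q at least 5 (34 overlapped), 162 held by all 5 DKOITD mice, and 1863 without DKOITD48, DKOITD53e and DKOITD83 together. Leaving out 1 library gave 434 to 994, highest without DKOITD53e (994) and DKOITD83 (964), fewer libraries then being required. The equal-peak and strict sets are thus largely different regions, with 145 and 34 of the 417 overlapped: H2-Aa, H2-Eb1, Irf8, Rnd3 and Nrp1 were kept in the first and not the second, and Capn2, Prag1, Ccdc102a, H2-DMb1, H2-Eb2, Ahnak and Apba1 in both. The gene-end share of 43.2% was 54.2% with 5 kb windows (43.9% of all regions), 37.4% by midpoint (27.3% of all), 54.3% for regions held by all 5 and 42.2% without X and Y.

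The H3K27me3-covered share of the regions' length, 11.9 percentage points higher in WT, was 0.889 with strict H3K27me3 peaks, 5.24 at equal peak numbers (1891), 6.78 without the 3 DKOITD mice, and 10.9 to 13.7 with 1 library left out. The 126 regions methylated in at least 2 WT mice were 5 with strict peaks, 40 at equal numbers and 97 to 126 with 1 library left out. The 33 with no DKOITD H3K27me3 were 2, 16, and 16 (without WT1 or WT3) to 59 (without DKOITD52). limma's 111 lower regions were 62 with no filter, 0 with strict peaks, 35 at equal numbers, 60 without the 3 mice, and 90 to 211 with 1 library left out (209 without WT2, 211 without DKOITD52). Its 26 lower among the 417 were 13, 0, 10, 14, and 18 to 52 (41 and 52). The calls at equal numbers were mostly other regions: only 4 of the 35 were among the 111, and 1 of the 10 among the 26. The cause of these moves was not tested, except that strict peaks left few regions to test, 229 in all. Repeated limma values of the named regions kept their direction, except at Socs2, which was not called and had a log2 difference below 0 that turned to 0.18 without the 3 mice. In 229 cases they kept their side of the threshold, with 23 calls lost and 3 gained. Regions that a setting left untested are not among these cases. At equal H3K27me3 peak numbers 3 regions kept their side and 2 lost the call. Irf8, Rnd3, Nrp1, Prag1, Dse, Capn2, Niban2, Ccdc102a and Apba1 were not tested there. With strict H3K27me3 peaks none of the named regions was tested. No paired analysis was possible because WT and DKOITD mice share no replicate number.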
